A study of Glycine max with 15 samples.

Results

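The genes described here are 200 soybean genes with low transcript levels under propiconazole (Pcz), which inhibits brassinosteroid synthesis, and with levels near the mock-treated control when a low dose of brassinolide (BL) was given together with it. They were chosen from 54175 gene IDs by L, the log2 of (treated FPKM + 1) over (control FPKM + 1), where FPKM is the number of sequenced fragments scaled for transcript length and library size. A gene was kept when control was at 1 FPKM or more in all 4 deposited tables, L was -1.5 or lower with Pcz, and L lay between -0.5 and 0.5 with Pcz and low BL. Of 28736 genes with that control level, 2968 passed the threshold for Pcz and 314 of these also lay in the window for low BL. The 200 with the lowest L in Pcz were kept. Levels with Pcz alone and with Pcz and low BL chose the genes, so they are described without a test. The tests concern 2 groups given high BL that the choice did not use, each set against the control that the choice did use.

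Brassinosteroids are plant steroid hormones that promote cell elongation, and brassinolide is the most active of them. In Arabidopsis the hormone is bound outside the cell by the receptor kinase BRI1. The signal inactivates the kinase BIN2, so that the transcription factors BZR1 and BES1 accumulate in the nucleus, where they activate some genes and repress others. Propiconazole belongs to the triazoles, which block cytochrome P450 enzymes on the path to brassinolide.

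Seedlings of the cultivar Williams 82 were used, 10 days old and at the first vegetative stage. They received, by irrigation, 5 mM Pcz (group Pcz), 5 mM Pcz together with 10 nM BL (labelled Pcz-lowBL, table Pcz-BL), 5 mM Pcz with 1 mM BL added later for 1 h (Pcz-BL-1h) or 8 h (Pcz-BL-8h), or a mock treatment (control). Each of the 5 groups had 3 libraries, 15 in all, and nothing in the labels says whether these came from separate plants. Doses are given as labelled; millimolar amounts are high for such compounds, so the unit is uncertain. A group with Pcz and a later mock addition is not among them, so effects of high BL and of the addition itself cannot be told apart. The tables hold 1 pooled FPKM per group with no value per library, so the spread between replicates is unknown. The depth is unknown, and the test deposited with the tables, from Cuffdiff, is the measure of significance. Sheet names and headers of 3 tables conflict: the sheet Pcz-BL is headed Pcz-BL-1h, the sheet Pcz-BL-1h is headed Pcz-BL-8h, and the sheet Pcz-BL-8h is headed Pcz-BL. Sheet names are used throughout because the sample labels cite them, and by the headers the table read here as low BL would hold high BL for 1 h. The table read as 1 h would then hold 8 h of high BL, and that read as 8 h would hold low BL. The comparison of 8 h with 1 h below would by the headers compare low BL with 8 h of high BL. No gene names stand beside the IDs and 0 of them matched the reference gene table, so no function is given for any gene and the tissue label was not checked against markers. In whole seedlings, fewer cells of a type and less RNA per cell cannot be told apart.

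With Pcz alone the 200 genes had a median of 2.31 FPKM (quartiles 0.852 and 5.16), against 16.1 FPKM in control. Their median log2 fold change was -2.72 over the 199 that were tested. The authors' deposited table called 190 of them lower at a q of 0.05 or less, where 28.4% of all 33690 tested genes were called lower. These values chose the genes. The 10 that were not called had 0 to 1.02 FPKM with Pcz and 3.13 to 8.62 FPKM in control, and 1 of them was not tested. The last gene kept had an L of -1.74515 in Pcz and the first left out by the limit -1.74487, while the nearest gene above the threshold stood at -1.498.

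With Pcz and low BL the same genes had a median of 14.5 FPKM, against 16.4 FPKM in control of that table. None of the 200 was called in the authors' deposited table Pcz-BL, where 36.2% of all tested genes were. By the rule L ran from -0.497 to 0.499, and 142 of the 200 lay below 0. The nearest genes outside the window, among those as low in Pcz, had an L of -0.5005 and 0.519 in Pcz-BL. Genes inside the window were a small share of those that Pcz lowered this far: of 2243 genes with an L in Pcz at or below that of the last gene kept, 1991 had an L of -0.5 or lower in Pcz-BL and 52 had one of 0.5 or higher.

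**Figure D1:**
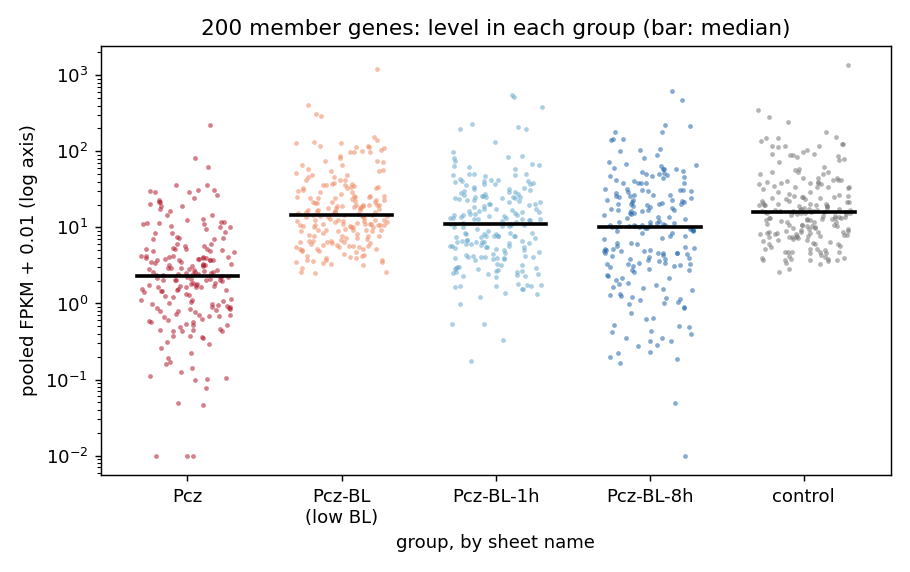
Pooled FPKM + 0.01 on a log axis for the 200 genes in each group, named by sheet, with control as the mean of its 4 columns; each point is 1 gene and the bar is the median. Median FPKM was 2.31 for Pcz, 14.5 for Pcz-BL, 11.0 after 1 h and 10.0 after 8 h of high BL. The tables were normalised separately, and the median control of these genes was 16.4 FPKM in the 1 h table and 13.6 FPKM in the 8 h table. Levels at 1 h and 8 h are therefore not on the same scale. Genes spread widest downwards in Pcz and Pcz-BL-8h.

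Glyma08g43330 and Glyma17g05500 had the lowest L with Pcz. Glyma08g43330 (chromosome 8, 43174860 to 43181425, positions here and below as deposited, on a genome build not given in the sources used here) had 1.75 FPKM with Pcz and 118 FPKM with Pcz and low BL, against 117 and 123 FPKM in control of those tables. With high BL it stood at 37.7 FPKM at 1 h and 10.7 FPKM at 8 h, against 123 and 102 FPKM in control. Both high-BL levels were below control in the authors' deposited tables, with log2 fold changes of -1.71 (SE 0.325, q = 0.000187) and -3.25 (SE 0.452, q = 0.000181). The gene was thus at control level with low BL and under it at both times of high BL.

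Glyma17g05500 (chromosome 17, 3836704 to 3840416) had 2.02 FPKM with Pcz, 81.5 with low BL, 33.6 with high BL for 1 h and 58.6 for 8 h, against 91.4 to 110 FPKM in the 4 control columns. Its log2 fold change was -1.71 at 1 h (SE 0.318, q = 0.000187 in the authors' deposited table). At 8 h it was -0.64 (SE 0.466, q = 0.0387), a call that is lost with a Gaussian p for the deposited test statistic.

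High BL for 1 h after Pcz was the first comparison the choice of genes did not use, although it shares the control libraries with it. A control level high by chance would favour the choice of a gene through Pcz and also a lower reading with high BL. The window for low BL rests on control too, and the part of this in the counts at both times was not tested. Most of the 200 genes were below control: 122 were called lower and 29 higher in the authors' deposited table, and 49 were not called. As shares these are 61.0% lower and 14.5% higher, against 26.5% and 25.6% of all 36884 tested genes. Among tested genes with control at 1 FPKM or more in all tables, the better match in level, 32.7% were lower and 17.0% higher. The median log2 fold change was -0.90, against -0.06 over all tested genes and -0.21 over those with that control level. A fall of at least 2-fold was called for 87 of the 200 genes and a rise of that size for 19, where 12.4% and 18.2% of all tested genes were called so, and 14.9% and 8.37% of those with that control level. All 200 were tested at both times.

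At 8 h of high BL lower calls again outnumbered higher ones. The authors' deposited table Pcz-BL-8h called 95 of the 200 lower and 38 higher, and 67 were not called. These are 47.5% and 19.0%, against 30.7% and 25.8% of all 34619 tested genes and 35.0% and 22.1% of those with the control level above. The median log2 fold change was -0.78, against -0.10 over all tested genes and -0.25 over those with that control level. Calls of at least 2-fold numbered 79 lower and 25 higher, where the shares were 22.6% and 19.0% of all tested genes and 25.3% and 14.1% of those with that control level. The genes called lower had a median of -1.88 at 8 h, against -1.33 for those called lower at 1 h, which are not all the same genes. A like shift was found beyond the 200: the medians of lower calls were -1.38 and -0.94 over genes with that control level, and -1.42 and -0.95 over all tested genes. The number of calls does not compare the extent of the responses, since the standard errors differed between tables (median over the 200 genes 0.461 at 8 h and 0.331 at 1 h).

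Few of the genes that stood at control level with low BL did so with high BL. L lay between -0.5 and 0.5 for 52 of the 200 genes at 1 h (26.0%) and for 53 at 8 h (26.5%), against 56.6% and 39.5% of the 28736 genes with control at 1 FPKM or more. Among the 2654 other genes with an L of -1.5 or lower in Pcz, outside the low-BL window, these shares were 23.8% and 29.3%. At 1 h 48 of the 200 genes had an L of -1.5 or lower and 10 one of 1.5 or higher, and at 8 h these numbers were 56 and 19. An L of -1.5 or lower was thus found in 24.0% of the 200 at 1 h and 28.0% at 8 h, against 4.89% and 8.33% of all genes with that control level. An L of 1.5 or higher was found in 5.00% and 9.50% of the 200, against 2.98% and 5.55%. The levels were still mostly above those with Pcz alone: 186 of the 200 genes had a higher FPKM at 1 h and 168 at 8 h, a description only, because low values with Pcz chose the genes and the tables were normalised separately.

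**Figure D2:**
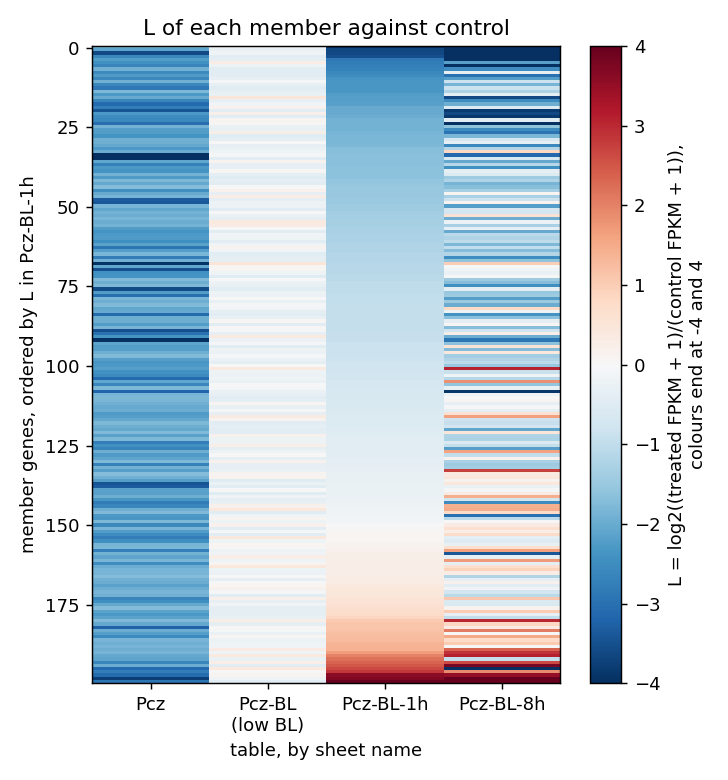
L of each of the 200 genes in the 4 tables, named by sheet, with genes ordered from the lowest to the highest L in Pcz-BL-1h; blue is below control, red above it, and colours end at -4 and 4. The uniform blue Pcz and pale Pcz-BL columns follow from the rule, while the high-BL columns run from blue to red, with 150 genes below control at 1 h and 138 at 8 h.

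The other 2654 genes with an L of -1.5 or lower with Pcz, outside the window with low BL, were set beside these 200. All of the 200 had an L of -1.745 or lower. At 1 h 61.0% of the 200 were called lower, against 59.3% of the others, with median log2 fold changes of -0.90 and -0.85. At 8 h 47.5% of the 200 were lower, against 40.1% of the others, with medians of -0.78 and -0.34. An L of -1.5 or lower was found in 24.0% of the 200 and 22.3% of the others at 1 h, and in 28.0% and 15.3% at 8 h. Called higher were 14.5% of the 200 against 18.8% of the others at 1 h, and 19.0% against 25.4% at 8 h. These are descriptions, and the differences between the sets were not tested.

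**Figure D3:**
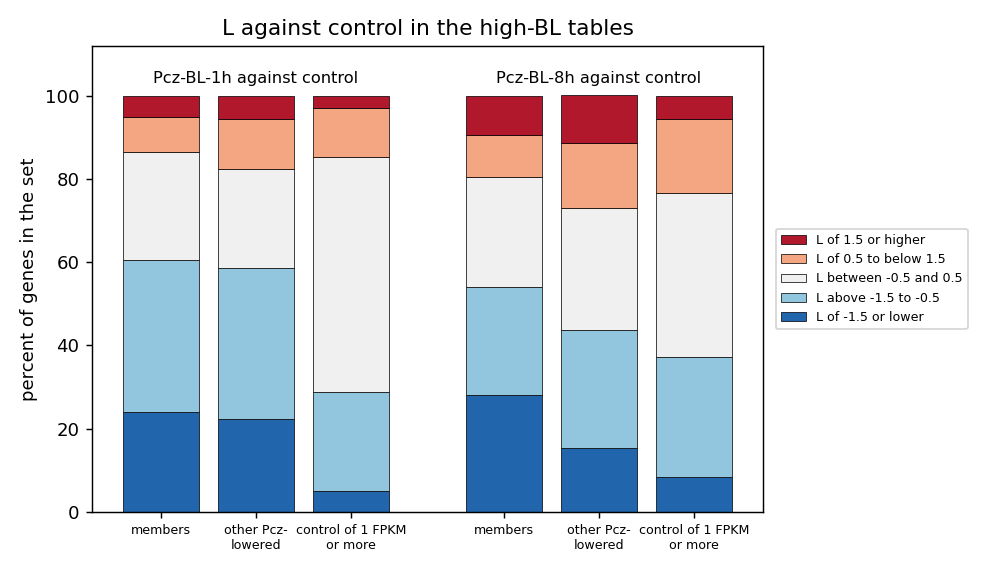
Percent of genes in 5 ranges of L at each time of high BL, for the 200 genes, the other 2654 genes lowered by Pcz and all 28736 genes with control at 1 FPKM or more. The range around control holds 26.0% and 26.5% of the 200 genes at 1 h and 8 h. It holds 23.8% and 29.3% of the other genes lowered by Pcz, and 56.6% and 39.5% of all genes with that control level.

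The share of the 200 genes called lower at 1 h differed with control level, a difference that was not tested. Among the 67 of the 200 with the highest mean control level (23.6 to 1345 FPKM), 57 genes were lower at 1 h and 2 were higher (2.99%, against 8.42% of the other tested genes in the same range of control level). The share of 85.1% lower compares with 58.1% of those other genes. Among the 67 in between (10.4 to 23.6 FPKM), 38 were lower and 15 higher at 1 h, 56.7% lower against 41.2% of the other genes and 22.4% higher against 11.4%. Among the 66 with the lowest level (2.61 to 10.2 FPKM), 27 were lower and 12 higher at 1 h, 40.9% lower against 26.2% of the other genes and 18.2% higher against 17.1%. At 8 h the 67 highest genes had 38 lower and 7 higher, 56.7% lower against 39.5% of the other genes and 10.4% higher against 26.9%. The 67 in between had 43.3% lower at 8 h against 36.6% of the other genes, and 23.9% higher against 21.1%. The 66 lowest had 28 lower and 15 higher there, 42.4% lower against 36.1% and 22.7% higher, where 2554 of the 12792 other genes were higher. Standard errors moved with the level too, with medians at 1 h of 0.320 for the 67 highest genes and 0.387 for the 66 lowest; the part of this in the counts was not tested.

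Glyma01g42850 and Glyma02g43560 had the highest control levels. Glyma01g42850 (chromosome 1, 53992185 to 53992500) had 222 FPKM with Pcz, 1223 with low BL, 211 with high BL for 1 h and 17.1 for 8 h, against 1163 to 1412 FPKM in the control columns. The authors' deposited table called it lower at 1 h (log2 fold change -2.74, SE 0.944, q = 0.00153). At 8 h its log2 fold change of -6.09 was not called (q = 0.202), while a Gaussian p for the same test statistic would call it. For this short locus the deposited p and test statistic do not follow each other, and its standard error in the Pcz table is implausibly small at 0.00770.

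Glyma02g43560 (chromosome 2, 48341044 to 48342999) was among the genes above control with high BL. It had 61.7 FPKM with Pcz, 412 with low BL, 516 at 1 h and 625 at 8 h, against 296 to 390 FPKM in the control columns. The authors' deposited tables called it higher at 1 h (log2 fold change 0.54, SE 0.378, q = 0.0453) and at 8 h (1.08, SE 0.497, q = 0.000496). Both calls are lost with a Gaussian p for the test statistic.

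The strongest rises among the 200 belonged to Glyma05g04490 and Glyma15g09530, which led at both times. Glyma05g04490 (chromosome 5, 3644753 to 3645695) had 0.0887 FPKM with Pcz, 5.57 with low BL, 194 at 1 h and 225 at 8 h, against 6.35 to 7.73 FPKM in the control columns. In the authors' deposited tables its log2 fold change was 4.65 at 1 h (SE 0.366, q = 0.000187) and 5.14 at 8 h (SE 0.504, q = 0.000181). Glyma15g09530 (chromosome 15, 6825590 to 6828151) had 0.0999 FPKM with Pcz, 12.4 with low BL, 194 at 1 h and 473 at 8 h, against 11.3 to 14.02 FPKM in the control columns. Its log2 fold changes in the authors' deposited tables were 3.79 (SE 0.413, q = 0.000187) and 5.38 (SE 0.580, q = 0.000181). Both genes stood under 0.1 FPKM with Pcz, near control with low BL and far above control with high BL.

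The deepest falls among the genes called at 1 h were those of Glyma05g38110 and Glyma10g31110. Glyma05g38110 (chromosome 5, 41521377 to 41522412) had 11.1 FPKM with Pcz, 31.1 with low BL, 0.523 at 1 h and 0.308 at 8 h, against 29.3 to 40.1 FPKM in the control columns. Its log2 fold changes in the authors' deposited tables were -6.09 at 1 h (SE 0.488, q = 0.000187) and -6.57 at 8 h (SE 0.884, q = 0.000181), the second lowest of the 200 at 8 h among genes with a finite value and a call. Glyma10g31110 (chromosome 10, 39668738 to 39670615) had 5.06 FPKM with Pcz, 18.3 with low BL, 1.33 at 1 h and 0.382 at 8 h, against 21.1 to 35.0 FPKM in the control columns. At 1 h its log2 fold change was -4.27 (SE 0.355, q = 0.000187 in the authors' deposited table). Both genes were lower with high BL than with Pcz alone in these separately normalised tables.

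**Figure D4:**
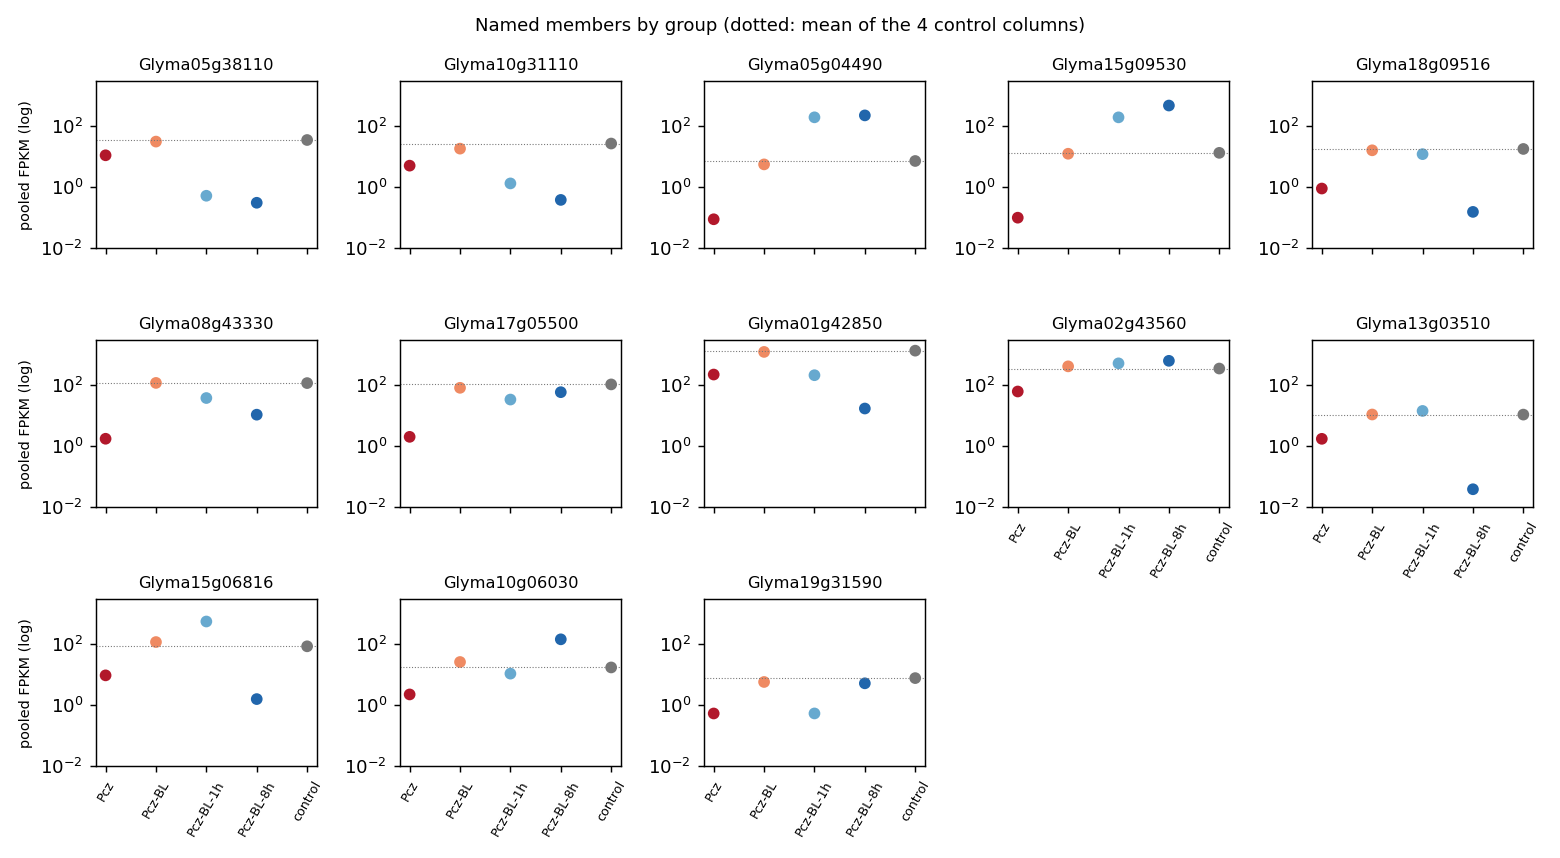
Pooled FPKM on a log axis for the 13 genes named by rule, 1 panel a gene, from left to right the 4 treated groups and control; the dotted line is the mean of the 4 control columns. Every gene is below the line in Pcz and near it in Pcz-BL, as the rule requires, while the high-BL points lie from 0.0387 FPKM (Glyma13g03510, 8 h) to 625 FPKM (Glyma02g43560, 8 h).

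The 2 times of high BL were then compared directly. A z test of the difference between the log2 fold changes of the 2 tables, adjusted by Benjamini-Hochberg over all 33792 genes with such a test, called 20 of 199 genes higher and 21 lower at 8 h than at 1 h. These are 10.1% and 10.6%, against 2.59% and 4.94% of all genes tested this way and 2.88% and 5.16% of those with control at 1 FPKM or more. The median difference over the 199 genes was 0.02, with quartiles of -0.98 and 0.85, and 158 of the 199 were not called. The other 2654 genes lowered by Pcz were 9.07% higher and 4.63% lower at 8 h, with a median difference of 0.52. The test treats errors in both tables as independent although control is shared, which by itself makes it call too few genes. It also rests on standard errors whose accuracy was not tested. Of the 21 genes it called lower, 19 were called lower than control at 8 h in the authors' deposited table. Glyma13g03510 and Glyma01g42850 were not called there (q = 0.0865 and 0.202). Whether the z test calls too few or too many genes is therefore not known. It left out 1 gene because that gene was listed at 0 at 8 h.

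The z test picked these genes by the same fold changes, so their calls and levels below are a description. Of the 20 genes higher at 8 h than at 1 h, 15 were called lower than control at 1 h and 14 were called higher than control at 8 h. Their median was 34.3 FPKM at 8 h, against 8.31 FPKM at 1 h. Glyma10g06030 (chromosome 10, 4764170 to 4764813) differed most, with 143 FPKM at 8 h, against 10.8 FPKM at 1 h. Control stood at 16.2 and 19.3 FPKM in those tables, and the difference of the log2 fold changes was 3.99 (SE 0.564). Against control its call was higher at 8 h and lower at 1 h in the authors' deposited tables (log2 fold changes 3.15 and -0.85, q = 0.000181 and 0.00431), but the call at 1 h is lost with a Gaussian p or a 2-fold minimum. The next was Glyma19g31590 (chromosome 19, 39380528 to 39383551), with 5.18 FPKM at 8 h, against 0.534 FPKM at 1 h. Its 1 h level was as low as with Pcz alone (0.533 FPKM), and the difference between the times was 3.54 (SE 0.813).

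Of the 21 genes lower at 8 h than at 1 h, 19 were called lower than control at 8 h and 13 at 1 h. Their median was 1.58 FPKM at 8 h, against 13.8 FPKM at 1 h. Glyma13g03510 (chromosome 13, 3514001 to 3519506) had 0.0387 FPKM at 8 h, against 14.2 FPKM at 1 h, a difference of -8.26 on the log2 scale (SE 1.44). Against its control of 10.1 FPKM the 8 h level was not called in the authors' deposited table (q = 0.0865). Glyma15g06816 (chromosome 15, 4788303 to 4795751) had 1.58 FPKM at 8 h, against 549.9 FPKM at 1 h, with control at 73.7 and 88.1 FPKM in those tables. Its difference was -8.19 (SE 0.706), and it was called lower at 8 h and higher at 1 h in the authors' deposited tables. Its locus overlaps another, so the reads behind it may be shared. Glyma18g09516 (chromosome 18, 8404207 to 8417298) had the lowest finite called fold change at 8 h, with 0.155 FPKM, against 16.3 FPKM in control (log2 fold change -6.72, SE 0.766, q = 0.000181 in the authors' deposited table). At 1 h it had 12.1 FPKM, against 19.5 FPKM in control, a log2 fold change of -0.69.

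**Figure D5:**
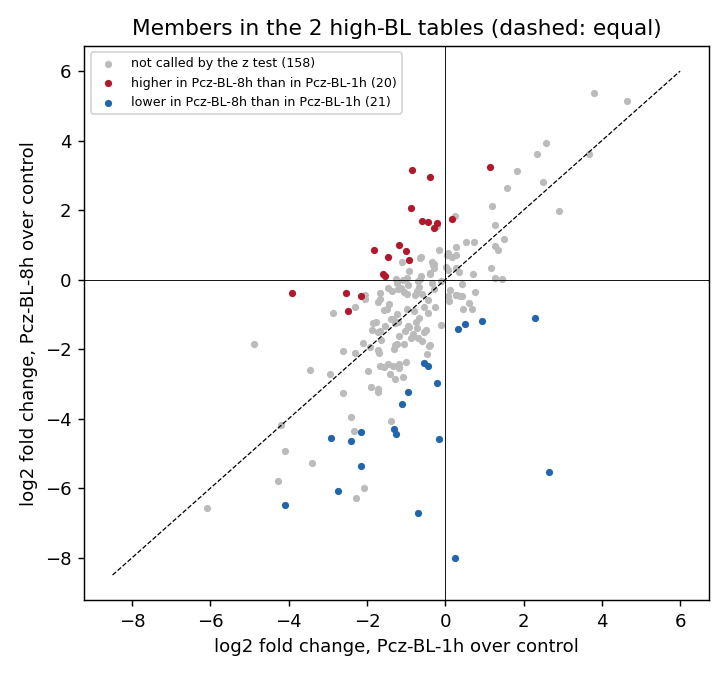
Log2 fold change against control after 1 h (horizontal) and 8 h (vertical) of high BL for 199 genes, each point 1 gene; the dashed line marks equal values. Red points are the 20 genes higher and blue points the 21 genes lower at 8 h than at 1 h by the z test; both axes use the same control libraries, so the spread along the line is not read.

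Some of the 200 genes lie close together. With at most 2 loci between them, 5 pairs were found among the 199 genes on chromosomes, named here after their values were seen. Pairs were not counted in other sets of genes, so whether 5 is usual is unknown. Glyma17g14786 and Glyma17g14793 are 12 bp apart and had 14.3 and 29.3 FPKM at 1 h, with log2 fold changes of -0.76 and -0.97. Glyma13g34066 and Glyma13g34073 are next to each other too and were both called higher at 1 h in the authors' deposited table (31.6 and 25.7 FPKM, log2 fold changes 1.46 and 0.77), while neither was called at 8 h. Neighbours also went apart: Glyma05g38110 had 0.523 FPKM at 1 h, against 35.5 FPKM in control. Beside it, Glyma05g38130 had 380 FPKM, against 282 FPKM in control, and was not called (log2 fold change 0.43). Glyma02g00330 was not called at either time, whereas its neighbour Glyma02g00340 was higher at both (log2 fold changes 1.18 and 2.13). Glyma18g51470 was called lower at 1 h (log2 fold change -2.07), where its neighbour Glyma18g51480 was not called (0.07). At 8 h Glyma18g51480 was called higher (0.77), and Glyma18g51470 was not called (-5.99). Reads from near-identical copies, common in the duplicated soybean genome, could be split between genes by the authors' counting, so levels of such copies are uncertain.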

How the data were processed

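The members and lists were chosen with earlier results of these data known. FPKM per group were deposited by the authors, pooled over libraries, in 4 Cuffdiff tables, per the file headers; program version, aligner, build and annotation: not given in the sources used here. The deposited p-value has a smallest entry of 5e-05, and a Benjamini-Hochberg adjustment of it over tested genes gave the authors' q-value to within 5.29e-07. The score is the authors' deposited test statistic. The log2 fold changes in the authors' deposited short lists equal those computed here from FPKM to within 5.09e-05.

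Fold changes were log2(treated/control FPKM), with L adding a pseudocount of 1 FPKM, which understates changes of low genes. Calls used the authors' q of 0.05 or less with status OK, over all tested genes. The planned fits per library could not be made on pooled values. The standard error was the absolute ratio of fold change to test statistic. The z test was checked on simulated data drawn with these same standard errors. That check cannot show whether the standard errors themselves are right. Named genes were, by rule, the 2 highest and 2 lowest called fold changes at 1 h and at 8 h, the 2 lowest L in Pcz, the 2 highest control levels and the 2 largest z-test differences each way. Gene lists could not be applied because 0 of 54175 IDs matched the reference table (59048 genes). A count of members by joint calls in both high-BL tables, planned as a description, is not given because the tables share controls. Python 3.11.15, pandas 2.3.3 and scipy 1.17.1 were used. Alternatives covered pseudocount, control floor, thresholds, window, limit, centring, control column and call rule.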

Additional observations from a re-analysis of the deposited data

Results flagged for a closer look

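The difference between the times of high BL was flagged for 41 of the 200 genes, because the z test of the difference of log2 fold changes between Pcz-BL-8h and Pcz-BL-1h called them. Among the named genes, Glyma10g06030 (3.99) and Glyma19g31590 (3.54) stood higher at 8 h than at 1 h on the log2 scale. Lower at 8 h were Glyma13g03510 (-8.26), Glyma15g06816 (-8.19), Glyma18g09516 (-6.03) and Glyma01g42850 (-3.35). For Glyma13g03510 and Glyma01g42850 the authors' deposited table Pcz-BL-8h does not call the level lower than control, although it lists large differences.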

How the results depend on the processing

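Of 11 other settings and 3 more chosen after seeing the data, 12 bear on the calls against control, 12 on the medians and 10 on the z test. At both times lower calls outnumbered higher ones and the median stayed below 0 in all of theirs. The z test gave no stable order of the directions: 20 of 200 genes higher and 18 lower with tables centred on their median, and 9.05% each when control averaged over its 4 columns chose the genes. The genes called higher against control changed most. At 1 h they were 22.0% when a pseudocount of 0.1 FPKM chose the genes (143 of 200 shared with the main choice) and 9.50% with a 2-fold minimum, against 14.5%. At 8 h they were 12.5% with a Gaussian p for the test statistic and also 12.5% with a 2-fold minimum, against 19.0%. The other 88 values stayed within 1.5 times of those reported or, for medians, within a median standard error. Of these, 8 came from dropping the control floor, which chose the same 200 genes and so could not differ. The share lower ran from 43.5% to 71.5% at 1 h and from 39.0% to 52.5% at 8 h, and the medians from -0.96 to -0.69 and from -0.97 to -0.67. Which time had the lower median changed with the setting. Without the limit of 200 the medians were -0.74 at 1 h and -0.89 at 8 h, while a control floor of 5 FPKM gave -0.96 and -0.85. Among the 114 genes that met the thresholds but fell past the limit, 52.6% were called lower at 1 h and 57.0% at 8 h. Averaging control over its 4 columns in the rule kept 162 of the 200 genes. Among 130 values for named genes, 9 lost and 2 gained a call; the cause was not tested. No paired analysis was possible because the tables hold 1 pooled value per group, and for the same reason leaving out libraries and count models were not run. At least 2-fold differences from control without a call were listed for 10 genes at 8 h and 5 at 1 h, with median standard errors of 1.45 and 1.16; why each was not called was not tested.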

Other observations

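Control columns should hold the same libraries in each table. Those for low BL and for both times of high BL were scaled copies of each other: against the low-BL column the SD of the log2 ratio over genes with control at 1 FPKM or more was 0.00116 at 1 h and 0.00706 at 8 h, the last at 0.829 times the level. In the Pcz table control did not follow a common scale, with an SD of 0.188. After scaling, 2 of the 200 genes differed there by over 1.5-fold. Without the 18 genes that differed most, 182 were left and the shares called stayed within 1.5 times of those reported; the part of this difference in the choice of genes was not tested further.

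The authors' deposited short list for 1 h of high BL holds 34 of the 200 genes (26 lower, 8 higher), 17.0% of them against 5.38% of all IDs, and 1.17% of the list. That for 8 h holds 53 (41 lower, 12 higher), 26.5% against 7.35% of all IDs, and 1.33% of the list. The deposited lists for Pcz and for low BL hold 168 and 0, counts that the choice of genes bears on directly. The 200 genes lie on all 20 chromosomes, with 1 on a scaffold. Chromosome 18 holds 19 of them, 9.50% against 4.89% of genes with control at 1 FPKM or more, and chromosome 13 holds 20, 10.0% against 6.98%; these shares were not tested. The median locus length was 3580 bp, against 4133 bp for genes with that control level, and 10 loci overlap another. Overlaps were counted for these genes only, so whether that number is usual is unknown. An unnamed column of the Pcz table carries gene IDs in 59 cells with no value and was not used.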
